A study of Drosophila melanogaster with 19 samples.

Results

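Back-splice junctions that the S2 cell table lists and that no table of fly heads lists are described here and are called S2-only junctions. They were selected on their measured reads: a junction was taken when its chromosome, start, end and strand stood in the S2 table and in none of the 3 head tables. This gave 771 of the 1280 S2 junctions, or 60.2%, and the other 509 were listed in heads too. The head tables held 4552 junctions. S2 is a cultured Drosophila melanogaster line derived from late embryos whose cells resemble hemocytes, the blood cells of the fly. It was sequenced once after RNase R and once after mock treatment. Heads came from flies with the C4 mutation of RNA polymerase II in the Canton-S background (slow) and from wild-type Canton-S flies (WT). Titles give each genotype the number 29 or 18, which the labels do not explain, and replicates 1 and 2. Each of the 8 RNA samples of heads gave an RNase R and a mock library, 16 in all, and 1 further library of WT heads kept the strand of the RNA.

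A back-splice junction joins the end of an exon to the start of the same or an upstream exon, and it is the read that marks a circular RNA. Circular RNAs have no free ends. RNase R digests linear RNA from its end, so that reads from circles take a larger share of a treated library, and a junction in a linear molecule is not protected. Fly circular RNAs are known to be abundant in neural tissue, and they often consist of 1 or more whole exons of a protein-coding gene.

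The S2 table held 14874 listed reads in the RNase R library and 4421 in the mock library, a factor of 3.36. Levels are therefore given as reads per 10000 listed back-splice reads of a library. The head libraries held 4871 to 20254 reads after RNase R and 800 to 3427 after mock treatment. The smallest total that a table lists is 2 reads. If reads alone decided the listing, an S2-only junction could have up to 3 unlisted head reads, 1 per table. The thresholds of the junction caller are not given, so this limit is not certain. With 1 library per treatment the S2 values have no replicate check. Their intervals are exact Clopper-Pearson intervals at 95%, and they cover counting error only.

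The S2-only junctions together had 4317 reads in the RNase R library, 29.02% of its reads (28.3 to 29.8), and 1472 in the mock library, 33.3% (31.9 to 34.7). Most rested on few reads. Of the 771, 437 had 2 reads in both libraries together (56.7%), against 137 of the 509 junctions listed in heads too (26.9%). At least 10 reads were found at 73 S2-only junctions and at least 100 at 8. Reads in both libraries were found at 331, in the RNase R library alone at 394 and in the mock library alone at 46.

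Few reads separated the junctions just inside the selection from those just outside it. Among junctions listed in heads, 70 had the minimum of 2 head reads, with a median of 3 S2 reads. The deepest of these lay in CG42368, current name DIP-epsilon, with 76 S2 reads, and 122 of the 509 stood in only 1 of the 3 head tables. On the inside, 3 S2-only junctions lay within 5 bases of a head junction, in Ef2b, eIF3-S9 and pAbp. Each of the 3 had 2 reads and 1 end shifted by 4 bases.

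One gene led the set. CG17646, which encodes an ABC transporter of the family that includes white, hosted 26 S2-only junctions with 1782 reads, 30.8% of all S2-only reads. Its leading junction, chr2L:1741660-1748874 (dm3, plus strand, ends 7215 bases apart), had 539 reads in the RNase R library and 203 in the mock library. That is 362 per 10000 after RNase R and 459 per 10000 in mock, a log2 ratio of -0.34 (-0.58 to -0.10). Its interval lies below 0, so its share was smaller after RNase R. The junction chr2L:1741660-1747860 had 215 reads after RNase R and 61 in mock (log2 ratio 0.06, -0.35 to 0.50). Another, chr2L:1743345-1746029, had 227 after RNase R and 37 in mock (0.85, 0.36 to 1.41). The short junction chr2L:1747692-1748874, 1183 bases long, had 106 reads after RNase R and 5 in mock, 71.3 against 11.3 per 10000 (2.52, 1.39 to 4.31). All 4 had the length of a run of CG17646 exons and introns that starts and stops at exon borders, called exon length below, as is the length of a single exon.

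The ends of these CG17646 junctions recurred. The start 1741660 was used by 3 S2-only junctions with 1032 reads, the start 1743345 by 4 with 531 reads, and the end 1748874 by 5 with 1052 reads. Both of these starts were used in heads, and the end 1748874 was not. Heads listed 6 CG17646 junctions with 193 reads in all, and the first was chr2L:1741660-1742260, 601 bases long, with 126 head reads. S2 cells listed this junction too, with 1935 reads after RNase R and 295 in mock. Of the 2972 S2 reads of this short junction and the leading long one, both libraries together, the long one took 24.97% (23.4 to 26.6). The libraries differed: the long one had 539 reads beside 1935 after RNase R and 203 beside 295 in mock. The pooled share is thus that of neither library. One S2-only junction of 20 reads, chr2L:1741653-1748867 on the minus strand, has the span of the leading one moved by 7 bases onto the other strand.

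**Figure D1:**
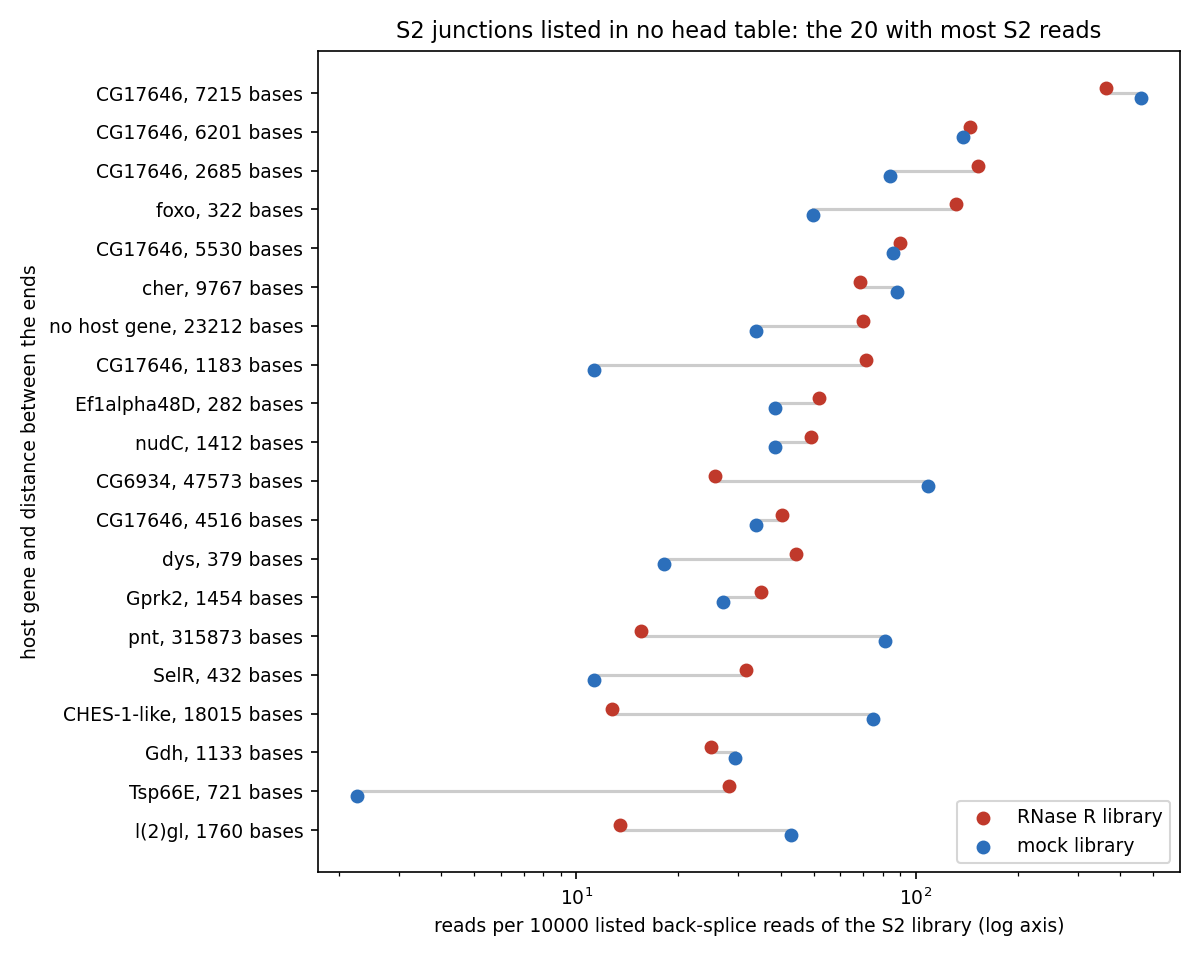
Level of the 20 S2-only junctions with most S2 reads, as reads per 10000 listed back-splice reads on a log axis, in the RNase R library (red) and the mock library (blue). Each row is 1 junction, named by host gene and distance between its ends. CG17646 fills 6 of the 20 rows, and the CG6934, pnt, CHES-1-like and l(2)gl junctions lie well to the left after RNase R.

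Junctions labelled with transcription factor genes had RNase R ratios on both sides of 1. The foxo junction chr3R:9892263-9892584 (plus strand) had 196 reads after RNase R and 22 in mock, 132 against 49.8 per 10000 (log2 ratio 1.38, 0.77 to 2.11). foxo encodes the forkhead factor that insulin signalling keeps out of the nucleus, and the 322 bases equal the length of 1 of its exons. The pnt junction chr3R:19163618-19479490 (minus strand) had 23 reads after RNase R and 36 in mock, 15.5 against 81.4 per 10000 (-2.39, -3.22 to -1.60). pnt encodes an ETS factor downstream of the EGF receptor, and the ends lay 315873 bases apart, not an exon length of the gene. The CHES-1-like junction chrX:7590510-7608524, labelled with another forkhead gene, had 19 reads after RNase R and 33 in mock (-2.53, -3.44 to -1.69). The intervals of these last 2 exclude a ratio of 1 on the side of mock. An end of each carried 2 host labels. The pnt end 19479490 was used by 3 S2-only junctions with 72 reads, labelled CG31145 and pnt. The CHES-1-like end 7608524 was used by 4 with 91 reads, labelled CG15478 and CHES-1-like.

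Genes of the cytoskeleton, signalling and metabolism followed. cher, which encodes the actin-binding filamin, had chr3R:12926710-12936476 with 102 reads after RNase R and 39 in mock (-0.37, -0.91 to 0.21). Gprk2, a G protein-coupled receptor kinase gene of the Hedgehog pathway, had chr3R:27279033-27280486 with 52 after RNase R and 12 in mock (0.32, -0.56 to 1.41). SelR, a methionine sulfoxide reductase gene, had chr3R:6692251-6692682 with 47 after RNase R and 5 in mock (1.36, 0.16 to 3.17). For cher and Gprk2 the 2 libraries cannot be told apart at this depth, and for SelR the interval lies above 0. Tsp66E, a tetraspanin gene, had chr3L:8919174-8919894 with 42 after RNase R and 1 in mock (3.07, 1.09 to 8.98). Gdh, the glutamate dehydrogenase gene, had 37 after RNase R and 13 in mock (-0.28), and nudC had 73 after RNase R and 17 in mock (0.32). The interval of neither excludes 0, while Tsp66E had the highest ratio of the 20.

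Of the remaining junctions with most reads, l(2)gl, the cell polarity gene, had chr2L:18261-20020 with 20 reads after RNase R and 19 in mock (-1.68, -2.66 to -0.69). CG6934, now CG42788, had chr3R:10957330-11004902 with 38 after RNase R and 48 in mock (-2.08, -2.74 to -1.44). A junction labelled Mf, a muscle gene, ends at the same base 11004902 and starts 128 bases later, with 7 after RNase R and 11 in mock, so that 1 end carried 2 host labels. capt, an actin-regulating gene, had a junction of 184 bases with 13 reads after RNase R and 21 in mock (-2.42, -3.56 to -1.37). The junction labelled dys, a label that no single current gene name matched, had 66 after RNase R and 8 in mock (1.22). A junction without host gene, chr2L:17863937-17887148, was at 69.9 per 10000 after RNase R and 33.9 in mock, with an interval of 0.26 to 1.93 on the log2 scale.

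Part of the set differed from a head junction at only 1 end. Of the 771, 129 (16.7%) used a start or an end that some head junction used: 66 the start, 75 the end, and 12 of these both ends, though never as a pair. For these 141 shared ends, the other end lay a median of 2960 bases (quartiles 307 and 15040) from that of the head junction with most reads there, and within 100 bases in 20. That head junction was itself listed in S2 for 95 of the 141. The S2-only junction had more S2 reads than it in 68.

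In foxo and SelR the S2-only and the head junction shared a start and ended apart. The foxo S2-only junction and the leading foxo head junction, chr3R:9892263-9892874, share their start, and the S2-only junction ends 290 bases earlier. In S2 cells the head form had 6 reads after RNase R and 0 in mock, so that the S2-only form made up 97.3% of the 224 reads of the pair (94.3 to 99.01). In heads, the head form had 369 reads, and all 16 libraries had reads of it. Its level ran from 20.5 to 42.0 per 10000 after RNase R (median 29.5, 8 libraries) and from 9.44 to 26.6 in mock (median 22.4, 8 libraries). After RNase R, WT libraries ran from 31.1 to 42.0 and slow libraries from 20.5 to 27.9. SelR differed by 16 bases: heads listed chr3R:6692251-6692698 with 94 reads, and S2 cells listed none of it. Its head level was 3.60 to 17.9 per 10000 after RNase R (median 8.95) and 0 to 11.3 in mock (median 0, reads in 3 of 8 libraries). After RNase R, libraries with the number 18 ran from 12.3 to 17.9 and those with 29 from 3.60 to 5.58. These splits by genotype and by number were seen in the values and were not tested.

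The other shared ends were used in different proportions. For Tsp66E the head junction chr3L:8919174-8921244 was common in S2 and had only 4 head reads, and the S2-only form took 27.7% of the 155 S2 reads of the pair (20.9 to 35.5). For cher the S2-only junction took 50.5% of 279 reads (44.5 to 56.6) beside the 541-base head junction, which had 6 head reads. For pnt it took 86.8% of 68 (76.4 to 93.8) beside a head junction of 2632 bases with 31 head reads. These shares pool the 2 libraries, which differed. The S2-only and the head junction of cher had 102 and 120 reads after RNase R and 39 and 18 in mock. Those of pnt had 23 and 7 after RNase R and 36 and 2 in mock. Those of Tsp66E had 42 and 102 after RNase R and 1 and 10 in mock. The 2 Gprk2 junctions with at least 10 reads used no head end: the single Gprk2 head junction, of 430 bases and 33 reads, ends 19423 bases before their common start.

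Beyond the deepest junctions, the S2-only set was mostly short. The ends lay a median of 287 bases apart (quartiles 162.5 and 1397.5), against 830 (397 and 1545) for S2 junctions listed in heads too. Distances of 200 bases or less were found at 257 S2-only junctions (33.3%), against 12.2% of the others. The set also had a long tail, with 88 (11.4%) at 10000 bases or more, against 2.75%. Depth divided the 2 ends of this range: the median was 228 bases at the 437 with 2 reads and 5530 bases at the 73 with at least 10 reads. At that depth the S2-only junctions were the longer ones, as the 127 listed in heads too had a median of 808 bases. Ends 10000 bases or more apart were found at 31.5% of the 73, against 3.94% of the 127. The longest was labelled CG30497, with ends 1268274 bases apart and 3 reads. The next 2 were labelled Sxl, the switch gene of sex determination, at 714091 and 714003 bases with 4 and 3 reads. The shortest were 4 junctions of 101 bases with 2 to 5 reads, in CG6192, in prominin-like, in Arp14D and outside any listed host gene.

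**Figure D2:**
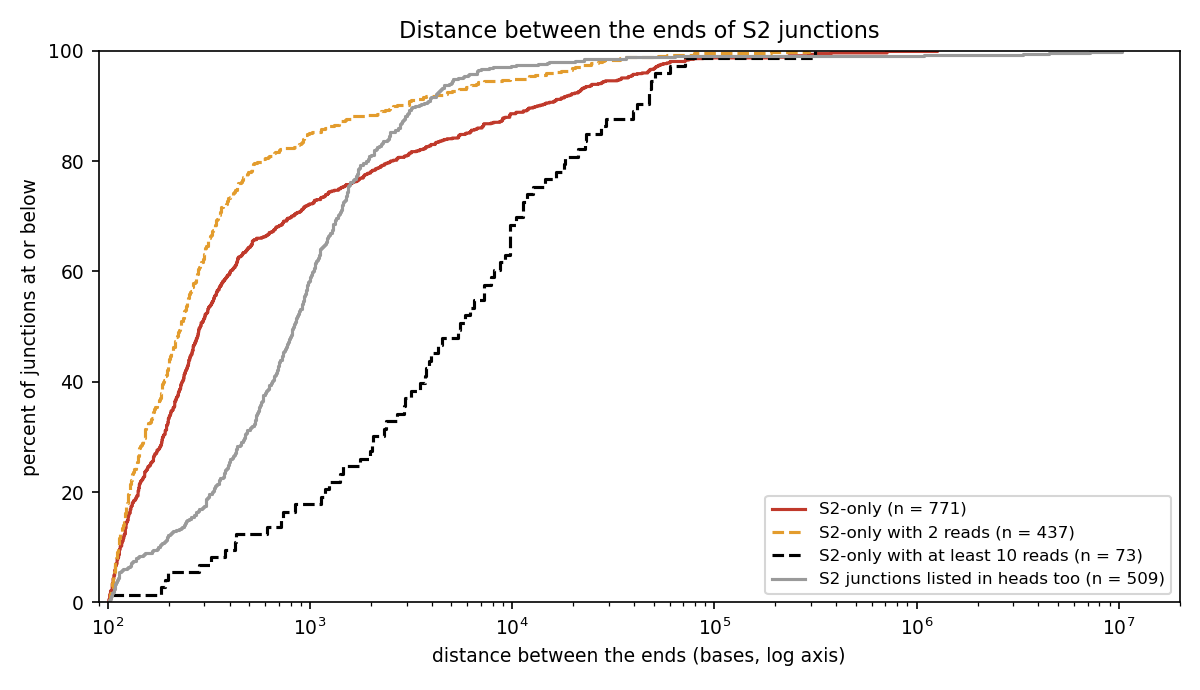
Cumulative percent of junctions against the distance between their ends in bases (log axis). The S2-only curve (red) lies above that of S2 junctions listed in heads too (grey) at short distances and under it at long ones; S2-only junctions with 2 reads are short (median 228 bases) and those with at least 10 reads long (median 5530 bases).

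Exon lengths matched fewer of them. The distance between ends equalled a single exon of the host gene at 39 S2-only junctions and a run of exons and introns between exon borders at 111, together 150 of 771 (19.5%). Among S2 junctions listed in heads too the same count was 385 of 509 (75.6%). Moving the distance by 1 or 2 bases left 8 to 11 S2-only matches. Matches became more frequent with depth: 12.1% of those with 2 reads, 23.4% of those with 3 to 9 and 49.3% of those with at least 10. They were also more frequent where an end was used in heads, 49.6% of 129, against 13.4% of the 642 S2-only junctions with neither end in heads.

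The strand told the deep and the shallow S2-only junctions apart as well. The strand of the host gene was known for 707 of them, and 225 (31.8%) lay on the opposite strand. The same share was 7.38% of 488 S2 junctions listed in heads too, 10.9% of all head junctions and 2.71% in the stranded head library. Of S2-only junctions with 2 reads 41.5% were on the opposite strand. With at least 10 reads, 2 of 68 S2-only junctions were (2.94%), against 5 of 123 listed in heads too (4.07%). At that depth the S2-only share was thus not the larger one. The 2 S2-only ones were the minus-strand junction of CG17646 above and one of 10 reads in CG10863. Opposite-strand junctions held 10.5% of the S2-only reads. The labels do not say whether the S2 libraries kept the strand, so that strand here is that of the deposited row.

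**Figure D3:**
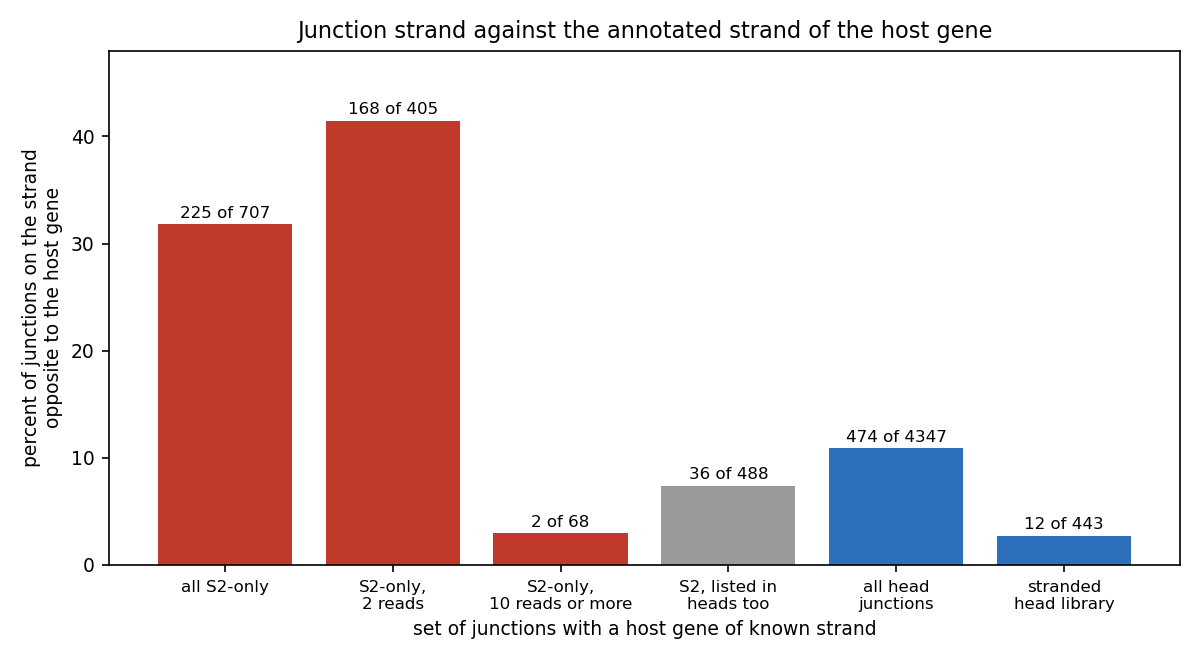
Percent of junctions whose strand is opposite to the annotated strand of their host gene, with the counts above the bars. S2-only junctions (red) reach 31.8% in all and 41.5% at 2 reads but 2.94% at 10 reads or more. S2 junctions listed in heads too (grey) are at 7.38%, all head junctions (blue) at 10.9% and the stranded head library at 2.71%. Not drawn are S2 junctions listed in heads too at 10 reads or more, which are at 4.07%.

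Short junctions on both strands gathered in a few genes, led by translation factors. Ef2b (now eEF2, the elongation factor that moves the ribosome along) hosted 26 S2-only junctions with 80 reads, 18 of them with 2 reads, and 10 on the strand opposite to the gene. Ef1alpha48D (now eEF1alpha1, which brings aminoacyl-tRNA to the ribosome) hosted 25 with 166 reads, none longer than 576 bases and 11 on the opposite strand. Its leading junction, chr2R:7782661-7782942, had 77 reads after RNase R and 17 in mock (log2 ratio 0.40). Of these 51 junctions 0 were of exon length. CG1092 followed with 11, CG17514 with 10, and cher, ap and sqd with 9 each. Of the 109 host genes with more than 1 S2-only junction, 43 had them on both strands (39.4%), against 6 of 86 such genes (6.98%) among S2 junctions listed in heads too. Spread was wide: of 401 host labels, 292 had 1 S2-only junction and 19 had 5 or more, and 55 junctions had no host.

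S2-only junctions lay on both sides of an equal share in the RNase R and mock libraries. Among the 73 S2-only junctions with at least 10 reads the median log2 ratio was -0.28 (quartiles -1.84 and 0.87) and 41 lay below 0, against 0.49 for the 127 S2 junctions listed in heads too and 0.35 for all 200. A ratio of 2-fold or more higher was found at 15 of the 73 (20.5%), and 23.5% of all 200 were that much higher. A ratio of 2-fold or more lower was found at 26 (35.6%), and 21.5% of all 200 were that much lower. At 20 reads or more the median of 42 S2-only junctions was -0.019, with 9 higher and 10 lower, and the 8 with at least 100 reads had a median of 0.45, with 3 higher and 0 lower. At 20 to 99 reads, 17.6% of 34 S2-only junctions were higher and 29.4% lower, against 26.1% and 10.9% of 46 listed in heads too. At 100 or more, 25 junctions listed in heads too had a median of 0.40, with 4 higher and 2 lower. On raw reads, without the factor of 3.36 between the libraries, the split of the 73 S2-only junctions was 45 higher and 6 lower and the median 1.47. Scaled to the median of the junctions listed in heads too, it was 3 higher and 32 lower. In raw reads, 19 of the 73 S2-only junctions had fewer reads after RNase R than in mock, against 7 of the 127.

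Exon length and distance went with the ratio. The 36 S2-only junctions of exon length had a median log2 ratio of 0.43, with 11 higher and 3 lower by 2-fold. The 32 without had -1.97, with 1 higher and 22 lower. The one higher was a CG18347 junction of 2040 bases, named after its values were seen, with 30 reads after RNase R and 0 in mock; the interval of its log2 ratio starts at 1.18. The 23 whose ends lay 10000 bases or more apart had a median of -1.99 (3 higher, 17 lower), and the 50 shorter ones had 0.14 (12 higher, 9 lower). S2 junctions listed in heads too showed the same order, with 0.57 for 106 of exon length (29 higher, 9 lower) and 0.02 for 17 without (2 higher, 8 lower). By distance, they had -2.85 for 5 at 10000 bases or more (0 higher, 5 lower) and 0.54 for 122 shorter ones (32 higher, 12 lower). The junctions of CG17646 weighed on the total: without them the median of the other 62 was -0.60, with 13 higher and 26 lower. They also made up 11 of the 36 of exon length.

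**Figure D4:**
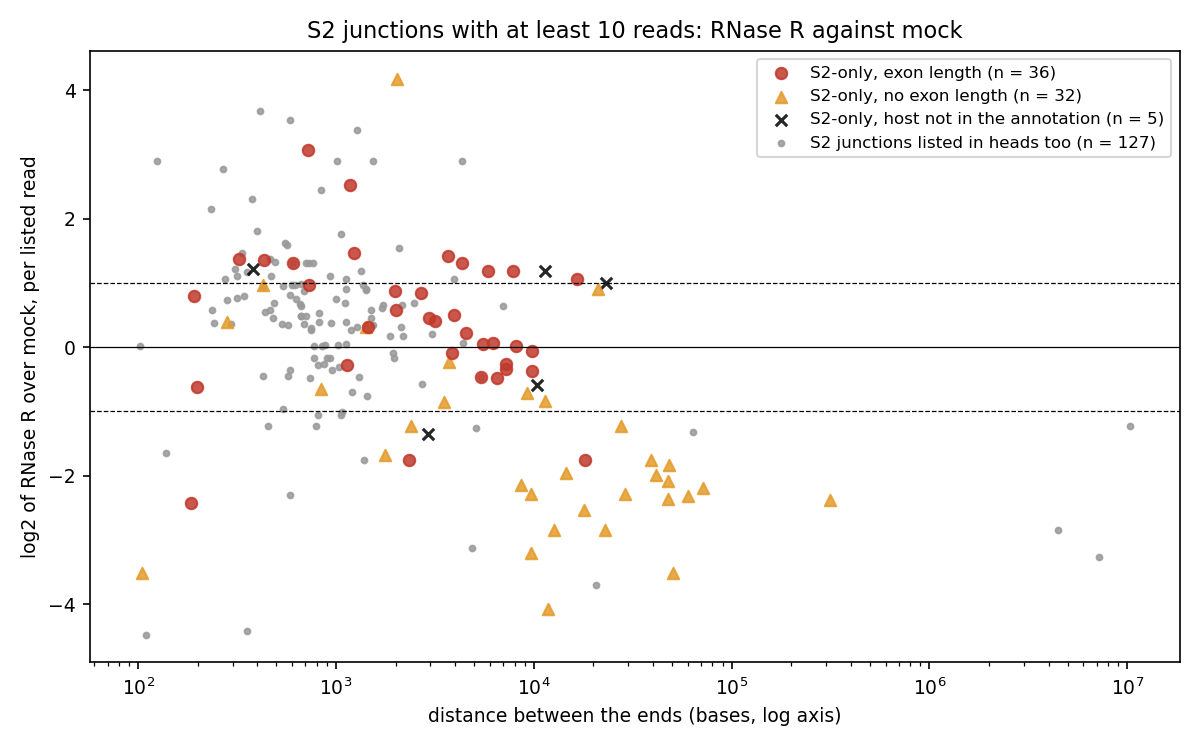
Log2 ratio of RNase R to mock reads per listed read against the distance between the ends (log axis) for the 200 S2 junctions with at least 10 reads; dashed lines mark 2-fold. S2-only junctions of exon length (red circles, n = 36) lie mostly above -1, while those of no exon length (orange triangles, n = 32) and with distant ends lie mostly below it.

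Host genes with and without other junctions in heads were both common. Of 401 host labels 174 (43.4%) had other head junctions, and these genes held 416 of the 716 S2-only junctions with a host (58.1%). The other 227 host genes, with 300 S2-only junctions, had none, nudC, Gdh, CHES-1-like, l(2)gl and capt among them. With at least 10 reads, the median log2 ratio was 0.03 for 46 junctions of genes with head junctions (10 higher, 12 lower) and -1.68 for 23 of genes without (3 higher, 13 lower). Among all 200 S2 junctions 23.5% were higher and 21.5% lower. CG17646 alone gave 11 of the 46, many with a common start or end, so that the 46 are not independent. This split was not repeated without CG17646. Exon lengths were matched by 26.7% of the junctions of genes with head junctions and by 13.0% of those of genes without. The 174 genes held 598 of the head junctions (13.1%) and 14.7% of head reads.

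In heads, where each treatment had 8 libraries, RNase R against mock was tested for the junctions of these host genes by edgeR's quasi-likelihood test over all 1354 junctions that entered it, with RNA sample as a block. It is a replicated measure that the selection did not use. Of 169 head junctions of the 94 host genes that could be tested, 3 were higher after RNase R at an adjusted p below 0.05 (1.92% of all 1354 were higher) and 10 were lower (5.47% of all 1354 were lower). Both shares are near those of all junctions, and the median log2 ratio was 0.39 for the 169 and 0.41 for all. The split depended on the scaling: it was 34 higher and 7 lower with TMM factors over all tested junctions, which moved the median of all junctions to 1.12, 7 and 9 with RLE factors, and 5 and 9 with library totals alone. DESeq2 gave 2 higher and 6 lower, with medians of the opposite sign, -0.14 for the 169 and -0.21 for all. The mock libraries of WT29 could not be told from each other beyond sampling noise, and counting them as 1 sample left 1 higher and 7 lower. The labels do not say whether replicates came from separate flies, and the p-values cover only the spread among these libraries, possibly a technical one.

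The 4 head junctions that fell with the smallest adjusted p lay in the host genes vsg, plexA, Cam and zfh2, and were named after their values were seen. The Cam junction of 114 bases, in the calmodulin gene, was at 0 to 0.90 reads per 10000 after RNase R (median 0.25) and at 5.84 to 44.4 in mock (median 20.3). The groups did not overlap, and it fell by 5.05 on the log2 scale (SE 0.57, adjusted p = 5.7e-17), in 8 of 8 RNA samples. The vsg junction of 110 bases ran from 0 to 2.48 after RNase R and from 8.75 to 57.1 in mock, and it fell by 4.54 (SE 0.49, adjusted p = 4.5e-18), in 8 of 8. The S2-only junctions of Cam and vsg were others, 1 in each gene.

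Of the leading head junctions of the hosts of the 20 deepest S2-only junctions, 5 could be tested, and 0 passed in edgeR or in DESeq2. At an unadjusted p below 0.05 there were 0 in edgeR and 1 in DESeq2. foxo chr3R:9892263-9892874 had a log2 ratio of 0.58 (SE 0.30, adjusted p = 0.284, edgeR), higher in 5 of 8 RNA samples. SelR had 1.07 (SE 0.62, adjusted p = 0.321), higher in 6 of 8, and CG17646 chr2L:1741660-1742260 had 0.70 (SE 0.53, adjusted p = 0.446), higher in 6 of 8. These 3 passed only with TMM factors over all tested junctions, at adjusted p = 0.000205, 0.0121 and 0.0124. Gprk2 had 0.86 (adjusted p = 0.636) and pnt 0.43 (adjusted p = 0.827). Leaving out 1 RNA sample moved some of these ratios, with none passing: CG17646 to 1.57 without WT18 replicate 1, SelR to 2.08 without WT29 replicate 1, and Gprk2 and pnt to 1.66 and 1.67 without slow18 replicate 1. The lowest ratios over such omissions were 0.52 for CG17646, 0.70 for SelR, 0.59 for Gprk2 and 0.21 for pnt. The level of the CG17646 junction was 3.95 to 24.6 per 10000 after RNase R (median 8.73) and 0 to 31.7 in mock (median 2.22), so that the groups overlapped. After RNase R, WT18 was at 24.6 and 23.3, and the next library, slow18 replicate 2, was at 10.3. The mock reads of this junction in heads numbered 8, in 4 of 8 libraries. The head junctions of cher, CG6934, Ef1alpha48D and Tsp66E had 4 to 6 reads, too few to be tested.

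Grouped by function, S2-only junctions came from a few genes of each list. The hemocyte and matrix list gave 12 (1.56% of S2-only junctions, against 0.98% of S2 junctions listed in heads too), all from LanA, Pvr, Pxn and srp, and 1.98% of head junctions were from this list. Pxn, the matrix enzyme peroxidasin, had chr3L:2607693-2612003 with 12 reads after RNase R and 1 in mock. srp, the GATA factor of blood cells, had chr3R:11825048-11852560 with 6 after RNase R and 4 in mock. Neither ratio can be told from 1 at this depth. The ABC transporter list gave 27 (3.50%, against 1.38%), 26 of them CG17646. The neuronal list gave 6 (0.78%, against 2.75%), from Dscam, Spn and plexA with 14 reads together, while 6.88% of head junctions were from this list.

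For the regulatory lists, the order of the shares of junctions was not always that of the shares of reads. Chromatin and transcription genes hosted 23 (2.98% of S2-only junctions, against 6.09% of S2 junctions listed in heads too) with 6.82% of S2-only reads, against 6.28% of the reads of the others, of which foxo, pnt, lola and luna had a junction of at least 10 reads. The lola junction of 18134 bases had 15 reads in each library, and the luna junction of 14484 bases had 6 after RNase R and 7 in mock. RNA binding and processing genes hosted 27 (3.50%, against 6.29%) with 1.24% of reads, against 4.12%, and none had 10 reads. Signalling genes hosted 13 (1.69%, against 3.54%) with 2.14% of reads, against 1.79%. Cytoskeleton and small GTPase genes hosted 18 (2.33%, against 3.73%) with 4.08% of reads, against 1.97%. Much of these S2-only reads came from single genes. cher had 199 of the 236 reads of the cytoskeleton list, Gprk2 100 of 124 of the signalling list, and foxo 232 of 395 of the chromatin list. The differences between the shares were not tested. The list called head fat body and cuticle gave 7, all from Hsp83. The muscle, photoreceptor, and cell cycle and DNA replication lists gave 1 each, in Mf, Cam (the calmodulin gene) and CycA. A place on a list does not make a gene specific to that tissue or process. Lists were matched by host label, and a label does not show that a junction is a circle of that gene.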

How the data were processed

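Back-splice junctions were measured in S2 cells and fly heads by sequencing total RNA after ribosomal depletion, with RNase R (3 units per µg, 15 min, 37 °C) or mock treatment, per the labels' protocols. CASAVA and Bowtie were run on build dm3, per the submitters' processing notes; versions, junction caller and thresholds are not given in the sources used here. The deposited values are read counts per junction, whole numbers made by the authors, with a host label. Tables held 1280 (S2), 3342, 3396 and 447 (stranded) junctions, each from 2 reads on. Unlisted was taken as 0.

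Positions are dm3, counted from 1. Tables were joined on exact position and strand. S2 ratios used reads per 10000 listed reads with a pseudocount of 0.5, called at 2-fold with at least 10 reads. Exon lengths and gene strands came from the annotation of the later build BDGP6, by gene name, and its coordinates were not used; 394 of 401 host labels matched a current name in the RefSeq table. Head counts were tested with edgeR 4.0.16 (R 4.3.3), with TMM over the 100 most abundant junctions. Junctions in both replicate tables entered if they had at least 10 reads over the 16 libraries together and reads in 2 or more libraries. Benjamini-Hochberg adjustment at 0.05 was used, two-sided. SE is the log2 ratio over the square root of F. The series' design text says that each RNA sample gave both libraries, hence the block; mock and RNase R deviations of a sample correlated at 0.09 to 0.41 over 355 junctions. Of 8 groups, only the mock pair of WT29 showed no difference beyond sampling noise (chi-square test, p = 0.319); as its RNase R pair differed, these were kept as 2 samples. The test was tried on simulated data. DESeq2 1.42.0 was an alternative. Python 3.11.15 with scipy 1.17.1 was used.

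The junctions, the gene lists (hemocyte and matrix, cell cycle, chromatin, RNA binding, signalling, cytoskeleton, ABC transporters, neuronal, muscle, photoreceptor, head fat body and cuticle) and the naming rule were chosen with earlier results of these data known. Named were the 20 with most S2 reads, 5 past 2-fold each way with most reads, the 3 longest and shortest (with any tie), the hosts with most junctions, each host's leading head junction, and list genes with at least 10 reads. Sequences are not reported, as no genome of the build was used here.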

Additional observations from a re-analysis of the deposited data

Results flagged for a closer look

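In 16 groups of 8 head libraries, the levels of the leading head junctions of the deepest S2-only hosts, 6 libraries stood apart from the other 7 of their group. The rule was set for about 1 in 20 groups by chance. That rate was not checked for levels that rest on few reads in libraries of unequal depth, so the 6 are not set against it. RNase R replicate 2 of slow29 had 6.20 reads per 10000 at the Gprk2 junction, from 10 reads. RNase R replicate 2 of slow18 had 2.05 at the Ef1alpha48D junction, from 1 read. Mock replicate 1 of slow18 had 12.5 at the Gprk2 junction, from 1 read, and 25.0 at the pnt junction, from 2 reads. Mock replicate 1 of WT18 had 31.7 at the CG17646 junction, from 5 reads, and 6.34 at the cher junction, from 1 read. Each group of 8 mixes genotypes and title numbers. At the CG17646 junction WT18 was also highest after RNase R, at 24.6 and 23.3. In mock, its replicate 2 had 11.4 there and replicate 1 of slow18 had 12.5, each from 1 read.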

How the results depend on the processing

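The number of S2-only junctions was 771. It stayed close with both ends matched within 5 bases, with strand ignored, and without the stranded table, and was 831 to 833 without 1 head replicate table. It was 147 at 5 reads or more, 73 at 10 or more and 331 with reads in both S2 libraries. Junctions whose host had other head junctions numbered 416, 377 to 380 without 1 replicate table, and 215 when a head junction needed 10 reads. The median S2 log2 ratio was -0.28. It was -0.76 scaled to junctions listed in heads too, 1.47 on raw reads (the opposite direction), -0.019 at 20 reads or more, -0.86 at 10 mock reads and -0.60 without CG17646, a setting chosen after seeing the data. Higher and lower junctions in S2 numbered 15 and 26; 3 higher after scaling to junctions listed in heads too; 45 and 6 on raw reads; 33 and 56 at 5 reads; 9 and 10 at 20 reads; 2 and 12 at 10 mock reads; 9 higher with a pseudocount of 1. The l(2)gl junction was at 0.072 on raw reads. Raw reads differ from the main scale by the factor between the libraries; other minimum reads change which junctions enter.

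In heads, 26 junctions were higher and 74 lower. Higher numbered 252 with TMM over all junctions, 50 with RLE, 17 with DESeq2 and, both added after seeing the data, 15 with TMM over the junctions with most summed reads and 10 with the WT29 mock libraries as 1 sample. Lower numbered 48 with DESeq2 and 28 with a filter of 50 reads. For the S2-only hosts, 3 higher became 34, 7 and 5 with TMM over all junctions, RLE and library totals, and 1 with the WT29 mock libraries as 1 sample; 10 lower became 6 with DESeq2 and 4 with a filter of 50 reads. Leaving out 1 RNA sample gave 13 to 38 higher and 47 to 72 lower in all, and 2 to 6 and 6 to 10 for these hosts. Without the replicate block 27 were higher and 75 lower, 3 and 10 for these hosts, and all 13 calls remained. The CG40084 junction chr2RHet:3154309-3155516, lower at -0.75, was at 0.12 with TMM over all junctions. The cause of these shifts was not tested. Depth limits every S2 value: 437 of the 771 junctions rest on 2 reads.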
